A study of Sus scrofa with 12 samples.

Results

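Genes of T cells and cytotoxic lymphocytes were followed in the jejunum, the middle part of the small intestine, of 12 piglets. The list held 10 genes, chosen by gene name: the T cell receptor chains CD3D and CD3E, the coreceptors CD4 and CD8A, the adhesion receptor CD2, the kinase LCK, and the cytotoxic granule genes GZMA, GZMB, PRF1 and NKG7. Of these, 9 were found among the 17049 gene names of the table, on 15 of its 41264 rows, and GZMB was not analysed here. Rows that carried the same name were summed, which joined 4 rows of GZMA and 2 rows each of CD3E, PRF1 and NKG7. All 9 genes passed the filter on low values. Expression was given as FPKM, the number of fragments of a gene scaled to its length and to the mapped fragments of the library.

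The piglets fell into 4 groups of 3. W_Con piglets were taken at 21 days of age, the day of weaning, and PW_Con piglets at 28 days, 7 days after weaning, both from sows on a corn and soybean meal diet without resveratrol. W_Res and PW_Res piglets had the same ages, and their sows received the same diet with 300 mg/kg resveratrol, a plant polyphenol, from day 20 after breeding until the end of lactation. Weaning was at 21 days, and the paper describes the control piglets taken on that day as still sucking. The labels name no resveratrol given to the piglets themselves, and litters were cross-fostered within a diet. The breed and the housing after weaning are described differently in the paper and in the sample records. The labels do not tie piglets to litters, so the p-values measure the spread between these 12 piglets. Age and weaning moved together, and cannot be told apart.

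A T cell recognises an antigen through a receptor whose signal is carried into the cell by the CD3 chains and by the kinase LCK, which is bound to the tails of CD4 and CD8. CD8 T cells and natural killer cells destroy target cells with granules that hold perforin, which opens the target membrane, and granzymes, proteases that enter behind it. In the small intestine many of these cells lie between the epithelial cells as intraepithelial lymphocytes, and pigs are known for a large share of T cells with a gamma delta receptor. The libraries came from whole tissue, so fewer cells of a type and less RNA per cell cannot be told apart.

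The labelled tissue was checked against marker genes. Of 14 listed enterocyte markers 12 were found, none at 0 FPKM in a library, with summed levels of 6741 to 22348 FPKM. Markers of ileum, the segment that follows the jejunum, were also present and ranged from 53.7 to 24519 FPKM (4 of 5 found). The W_Res libraries stood apart from the rest. Their median FPKM over all rows was 0.479, 1.12 and 0.836, against 0.238 to 0.429 in the other 9 libraries, and Pearson's r between them, taken across genes, was 0.881 to 0.911, against 0.921 to 0.961 within the other groups. The 7 smooth muscle markers found, none at 0 in a library, summed to 657 to 3918 FPKM in W_Res and to 151 to 635 FPKM in the other groups. The table holds no read counts, and the depth behind a single value is unknown.

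GZMA was the most abundant member in each of the 4 groups, and CD3E was second in each. In W_Con the mean level was 164 ± 61.1 FPKM for GZMA and 62.2 ± 17.9 FPKM for CD3E (SD, n = 3). LCK followed with 19.1 ± 2.43 FPKM, then NKG7, CD3D and CD8A, then CD2 with 12.7 ± 2.22 FPKM, CD4 with 7.42 ± 2.62 FPKM and PRF1 with 2.88 ± 1.79 FPKM. In this group the libraries of GZMA lay above those of CD3E, CD3E above LCK, CD2 above CD4 and CD4 above PRF1, whereas the neighbours from LCK to CD2 overlapped. In PW_Con GZMA alone was separated from the gene next to it. In W_Res and PW_Res, where GZMA averaged 28.2 ± 18.1 and 30.3 ± 9.82 FPKM, every gene overlapped with its neighbour in the order of levels.

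**Figure D1:**
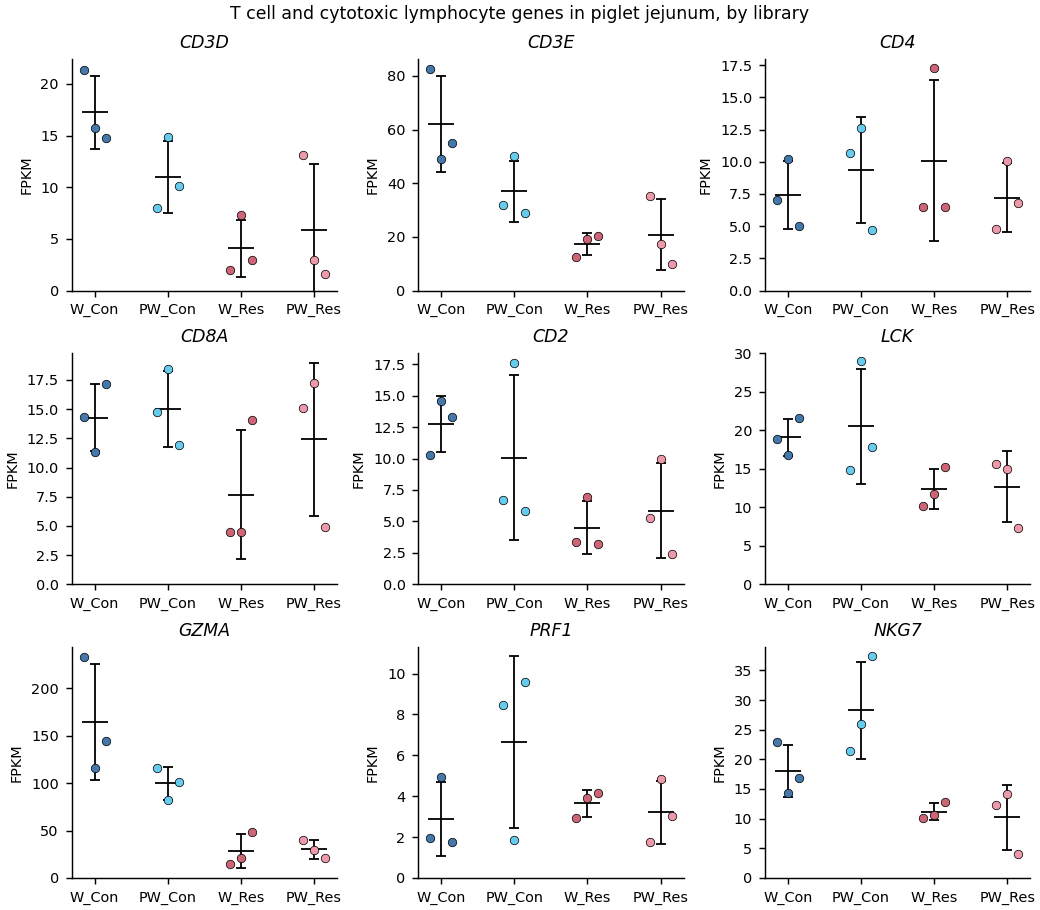
FPKM of the 9 genes (vertical axes, each starting at 0) in the 4 groups (horizontal axes), with 1 point per library, replicates 1 to 3 from left to right, and the mean ± SD of 3 libraries as black bars, where the lower bar of CD3D in PW_Res is cut at 0. All 6 resveratrol libraries of GZMA lay below all 6 control libraries, whereas CD4 overlapped between all groups.

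The CD3 chains, which pass on the signal of the T cell receptor, were highest in the control piglets at 21 days. CD3D measured 21.3, 15.8 and 14.8 FPKM in W_Con, 8.01, 14.9 and 10.15 in PW_Con, 2.03, 7.26 and 2.91 in W_Res and 13.1, 2.99 and 1.59 in PW_Res. CD3E measured 82.5, 49.1 and 54.8 FPKM in W_Con, 31.7, 50.1 and 28.9 in PW_Con, 12.55, 19.2 and 20.3 in W_Res and 35.3, 17.4 and 9.71 in PW_Res. For both chains the W_Res libraries lay below every W_Con library, and at 28 days PW_Res replicate 1 lay inside the range of PW_Con while the other 2 libraries lay below it.

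CD4 and CD8A encode the coreceptors that bind MHC class II and class I molecules. CD4 measured 7.07, 10.199 and 5.001 FPKM in W_Con, 10.7, 12.6 and 4.71 in PW_Con, 6.46, 17.3 and 6.49 in W_Res and 4.75, 10.1 and 6.79 in PW_Res. CD8A measured 14.3, 11.4 and 17.1 FPKM in W_Con, 14.7, 18.4 and 11.9 in PW_Con, 4.45, 4.49 and 14.1 in W_Res and 15.1, 17.2 and 4.92 in PW_Res. CD4 overlapped in every comparison of groups. CD8A was low in W_Res replicates 1 and 2 and in PW_Res replicate 3, and within the control range in the other 3 resveratrol libraries.

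CD2 is the adhesion receptor by which T cells and natural killer cells hold on to other cells, and LCK is the kinase that starts receptor signalling. CD2 measured 10.3, 14.6 and 13.3 FPKM in W_Con, 6.73, 17.6 and 5.85 in PW_Con, 3.39, 6.93 and 3.17 in W_Res and 5.23, 9.93 and 2.42 in PW_Res. LCK measured 18.9, 16.7 and 21.6 FPKM in W_Con, 14.8, 29.0 and 17.8 in PW_Con, 10.1, 11.8 and 15.2 in W_Res and 15.6, 14.98 and 7.35 in PW_Res. At 21 days the groups of both genes were separate, with W_Res below W_Con, and at 28 days they overlapped.

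The granule genes did not share 1 pattern. GZMA, a protease of cytotoxic granules, measured 233, 116 and 144 FPKM in W_Con, 116, 81.7 and 101 in PW_Con, 14.8, 21.1 and 48.9 in W_Res and 40.3, 29.9 and 20.7 in PW_Res. NKG7, a membrane protein of the granules, measured 22.9, 14.3 and 16.9 FPKM in W_Con, 21.5, 25.9 and 37.4 in PW_Con, 10.1, 10.6 and 12.8 in W_Res and 12.4, 14.2 and 4.04 in PW_Res. For both genes all 6 resveratrol libraries lay below all 6 control libraries, in the case of NKG7 by a small margin. PRF1, which encodes perforin, measured 1.95, 4.95 and 1.76 FPKM in W_Con, 8.49, 1.85 and 9.60 in PW_Con, 2.91, 3.91 and 4.14 in W_Res and 1.77, 4.86 and 3.01 in PW_Res. Its groups overlapped in all comparisons, and its 2 highest values were those of PW_Con replicates 1 and 3. The GZMA name covers 2 abundant rows, with 53.4% and 44.7% of the summed FPKM, and the RefSeq annotation of Sscrofa11.1 also lists 2 genes of that symbol. Reads of near-identical copies could be split between them, and the sum covers both.

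Differences were taken on the log2(FPKM + 1) scale and tested with limma. The standard used is that of the study, an absolute log2 fold change over 1 together with an unadjusted P under 0.05, and a gene is said to rise or fall only where it passed this standard. The adjusted p, corrected over all 12886 names tested, is given beside it.

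At 21 days, CD3D, CD3E, CD2 and GZMA fell in piglets of resveratrol sows, and no member rose. Mean GZMA was 5.82-fold higher in W_Con than in W_Res, CD3D 4.25-fold, CD3E 3.58-fold and CD2 2.83-fold. On the log2(FPKM + 1) scale, on which the change of a weakly expressed gene appears too small, GZMA fell by 2.61 (standard error 0.41, adjusted p = 0.0649 from limma) and CD3D by 1.97 (0.55, adjusted p = 0.125). CD3E fell by 1.78 (0.40, adjusted p = 0.103 from limma) and CD2 by 1.37 (0.46, adjusted p = 0.161). These 4 of 9 members compare with 1.44% of all names that passed the standard in the lower direction. No member had an adjusted p under 0.05 in limma, although 4 had an unadjusted P under 0.05. Over all names, 6 had an adjusted p under 0.05. The other members gave log2 differences of -0.98 for CD8A, -0.63 for NKG7, -0.60 for LCK, 0.34 for PRF1 and 0.31 for CD4. The groups did not overlap, with W_Res lower, for 6 of the 9 members (CD3D, CD3E, CD2, LCK, GZMA and NKG7), against 7.26% of all names. The median log2 difference was -0.98 over the members and 0.08 over all names.

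The 4 calls at 21 days held without any 1 library and with W_Res replicates 2 and 3 left out together. CD8A passed the standard as well without W_Res replicate 3 (-1.46), without replicates 2 and 3 (-1.47) and with quantile normalization (-1.10). In the same comparison 6 of the 7 smooth muscle markers rose, with a list median of 2.21. With the smooth muscle score as a covariate the 4 members passed the standard as before. The 12 jejunal enterocyte markers found, genes of the absorptive epithelial cells and none at 0 in a library, summed to 10209 to 22348 FPKM in W_Con and 7954 to 13251 FPKM in W_Res. Of these, 10 of 12 were lower in W_Res, with a median of -0.82, and APOB, which encodes the apolipoprotein of chylomicrons, passed the standard (-1.29), though not without W_Con replicate 3 (-1.01), without W_Res replicate 2 (-1.04) or with the smooth muscle score as a covariate (-1.03). The part of the enterocyte markers in the result was not tested. The 6 pan-leukocyte markers found, genes of white blood cells of several types and none at 0 in a library, summed to 225 to 343 FPKM in W_Con and 141 to 239 FPKM in W_Res. All 6 were lower in W_Res, none past the standard, with a median of -0.53. Of 8 listed reference genes, widely expressed genes, 5 were found and tested. They summed to 2634 to 3246 FPKM in W_Con and 1787 to 3155 FPKM in W_Res. In W_Res 4 of these 5 were lower and 1 higher, none past the standard, with a median of -0.37. Their part in the result was not tested.

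At 28 days, GZMA and NKG7 fell in piglets of resveratrol sows. Mean GZMA was 3.29-fold and mean NKG7 2.77-fold higher in PW_Con than in PW_Res. GZMA fell by 1.72 on the log2 scale (standard error 0.41, adjusted p = 0.411 from limma) and NKG7 by 1.501 (0.37, adjusted p = 0.411). These 2 of 9 members compare with 0.9% of all names past the standard in the lower direction. They were also the 2 members whose groups did not overlap, with PW_Res lower, against 11.8% of all names. The remaining members gave differences of -1.15 for CD3D, -0.93 for CD3E, -0.71 for PRF1, -0.69 for CD2, -0.67 for LCK, -0.40 for CD8A and -0.29 for CD4. All 9 differences were thus below 0, where the median over all names was -0.07 and 58.9% of names lay below 0. The adjusted p from limma was above 0.05 for every member and every other name, although 4 members (GZMA, NKG7, CD3E and LCK) had an unadjusted P under 0.05.

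PW_Res replicate 1 was the library with the highest CD3D and CD3E of its group. Without it 4 members passed the standard, the added ones being CD3D at -1.86 and CD3E at -1.39. The other single libraries that moved a member past the standard at 28 days were PW_Res replicate 2 for CD2 (-1.11 without it), PW_Con replicate 2 for PRF1 (-1.32) and PW_Con replicate 3 for CD3E (-1.08). The ileum markers of the PW_Res libraries summed to 24519 FPKM in replicate 1 and to 94.9 and 105 FPKM in replicates 2 and 3, against 6741 to 9960 FPKM in PW_Con. Pan-leukocyte markers summed to 180 to 402 FPKM in PW_Con and 107 to 180 FPKM in PW_Res, with 6 of 6 lower and CD53 past the standard at -1.40. GZMA and NKG7 passed the standard at 28 days with the ileum or the smooth muscle score as a covariate, and without any 1 library.

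**Figure D2:**
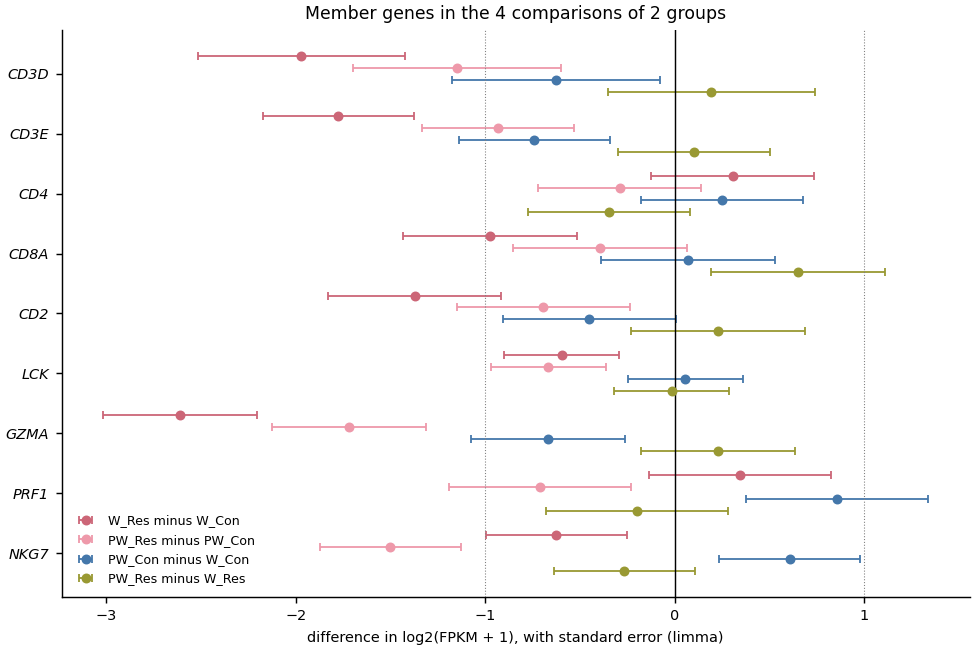
Difference in log2(FPKM + 1) (horizontal axis) with its standard error from limma, for the 9 genes (vertical axis) in the 4 comparisons of 2 groups, 3 libraries in each. Dotted lines mark -1 and 1. GZMA lay at -2.61 and -1.72 in the diet comparisons, and no gene passed -1 or 1 in the weaning comparisons.

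Averaged over both ages, 5 members fell in piglets of resveratrol sows: GZMA, CD3D, CD3E, NKG7 and CD2. GZMA fell by 2.17 (standard error 0.29, adjusted p = 0.0365 from limma). It was the only member with an adjusted p under 0.05, as were 18 of all names (0.14%). CD3D fell by 1.56 (0.39, adjusted p = 0.190 from limma), CD3E by 1.35 (0.28, adjusted p = 0.131), NKG7 by 1.06 (0.26, adjusted p = 0.189) and CD2 by 1.03 (0.32, adjusted p = 0.274). These 5 of 9 members compare with 0.52% of all names past the standard in the lower direction. CD8A gave -0.69, LCK -0.63, PRF1 -0.18 and CD4 0.01. For CD4 the standard error was 0.30, and the sign of its difference changed with quantile normalization. The median over the members was -1.03 and that over all names 0.03.

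GZMA, CD3D and CD3E passed the standard under each of the 23 alternatives run. The adjusted p of GZMA ranged from 0.00473 to 0.105 over them and stayed under 0.05 without W_Res replicate 3 or PW_Res replicate 1, but not without any other single library. CD2 passed no longer without W_Con replicate 2 (-0.98), W_Res replicate 1 (-0.97), W_Res replicate 3 (-0.95), PW_Con replicate 2 (-0.81) or PW_Res replicate 3 (-0.82). NKG7 passed no longer without W_Con replicate 1 (-0.98), PW_Con replicate 3 (-0.96) or PW_Res replicate 3 (-0.81), or with the ileum marker score as a covariate (-0.91). With that covariate GZMA stood at -1.86, CD3D at -1.28, CD3E at -1.06 and CD2 at -1.17.

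Weaning moved no member past the standard. From W_Con to PW_Con the log2 differences were -0.74 for CD3E (standard error 0.40), -0.67 for GZMA (0.41), -0.63 for CD3D (0.55) and -0.45 for CD2 (0.46). They were 0.86 for PRF1 (0.48), 0.61 for NKG7 (0.37), 0.25 for CD4 (0.43), 0.07 for CD8A (0.46) and 0.05 for LCK (0.30). The standard was met by 0 of 9 members and by 3.1% of all names, and no member had an unadjusted P under 0.05 in limma. All 9 members overlapped between the groups, whereas 24.9% of all names did not. Without W_Con replicate 2 or without PW_Con replicate 2, PRF1 passed the standard, at 1.21 and 1.46.

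In resveratrol litters, the differences from W_Res to PW_Res ran from -0.35 for CD4 to 0.65 for CD8A, with GZMA at 0.23, CD3D at 0.19 and CD3E at 0.10. Again 0 of 9 members met the standard, against 4.94% of all names, and all 9 overlapped, against 21.7% of names that did not. No member had an unadjusted P under 0.05 in limma. CD8A passed without W_Res replicate 3 (1.14) or without PW_Res replicate 3 (1.16). In this comparison the median over all names was -0.15, and 0.01 after median-of-ratios rescaling. Averaged over both diets, 0 of 9 members and 1.42% of names met the standard, with member values from -0.32 for CD3E to 0.36 for CD8A and no unadjusted P under 0.05 in limma.

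Whether the change at weaning differed between the diets was tested as an interaction. Its values ran from -1.06 for PRF1 (standard error 0.68) to 0.89 for GZMA (0.57), with NKG7 at -0.87, CD3E at 0.84 and CD3D at 0.82. The standard was met by 0 of 9 members and 7.76% of names, and no member had an unadjusted P under 0.05 in limma. GZMA passed without W_Res replicate 3 (1.37) or without W_Res replicates 2 and 3 (1.61), PRF1 without PW_Con replicate 2 (-1.66), NKG7 without PW_Res replicate 2 (-1.17) and CD3E without PW_Res replicate 3 (1.27). The diet difference of NKG7, past the standard at 28 days alone, and those of CD3D, CD3E and CD2, past it at 21 days alone, were thus not shown to differ between the ages.

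Ratios of genes within a library were taken as differences of log2(FPKM + 1), so that a factor common to a library could still move them, most where a gene was low. The log2 ratio of GZMA to CD3E was 1.36 ± 0.13 in W_Con and 1.44 ± 0.64 in PW_Con, and 0.53 ± 0.61 in W_Res and 0.65 ± 0.42 in PW_Res (SD, n = 3). W_Res replicate 3 reached 1.23, inside the range of W_Con, and the diet groups overlapped at 28 days as well. The ratio of CD3E to PTPRC, the CD45 gene of all white blood cells, was 1.67 ± 0.17 in W_Con and 0.74 ± 0.13 in W_Res, without overlap, and 1.62 ± 0.58 in PW_Con and 1.14 ± 0.67 in PW_Res, with overlap.

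The ratio of NKG7 to CD3E was -1.72 ± 0.08 in W_Con and lay higher in each other group, at -0.37 ± 0.66 in PW_Con, -0.57 ± 0.26 in W_Res and -0.94 ± 0.59 in PW_Res. All 9 libraries of those groups were above the 3 of W_Con. PRF1 to CD3E was -4.08 ± 0.90 in W_Con and -1.96 ± 0.15 in W_Res, without overlap. CD8A to CD4 ran from -1.74 to 1.01 within W_Res and overlapped between all groups. These ratios were not tested.

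**Figure D3:**
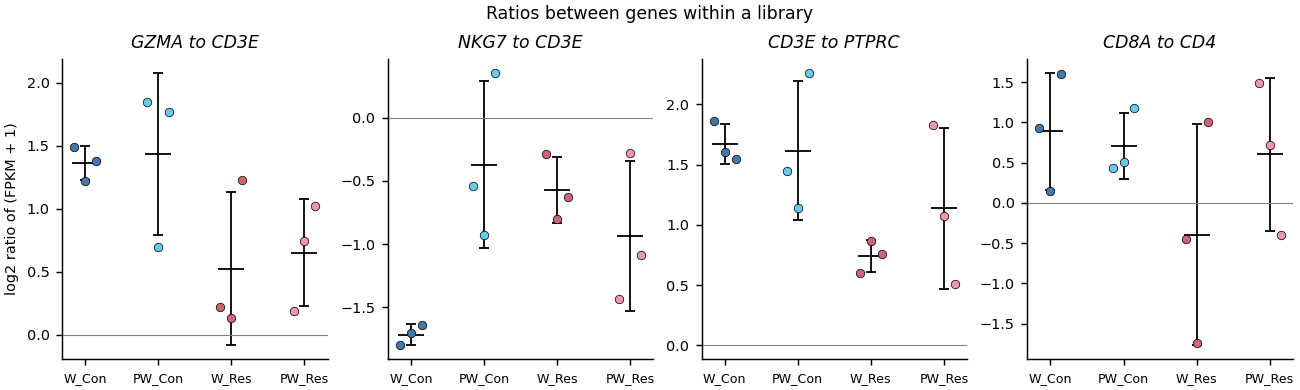
Log2 ratio of (FPKM + 1) between genes within a library (vertical axes) in the 4 groups, with 1 point per library, replicates 1 to 3 from left to right, and mean ± SD as black bars. The ratio of CD3E to PTPRC averaged 1.67 in W_Con and 0.74 in W_Res, and that of NKG7 to CD3E was lowest in W_Con.

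Companion lists gave the other genes of these cells, 94 tested genes over 6 lists. Averaged over both ages, 81 of the 94 were lower and 13 higher in resveratrol litters, 9 fell past the standard and none rose past it. The median over the 94 genes was -0.37, against 0.03 over all names. At 21 days 65 were lower and 12 fell, and at 28 days 80 were lower and 8 fell. The 2 comparisons share no library.

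Of 25 tested T cell receptor and signalling genes 22 were lower in the average and 3 fell. CD247, the zeta chain of the receptor, had group means of 25.0 FPKM in W_Con, 23.2 in PW_Con, 8.35 in W_Res and 13.9 in PW_Res, and fell by 1.19 in the average (standard error 0.28, adjusted p = 0.162 from limma). CD3G, the third CD3 chain, fell by 1.07 and LCP2, the adaptor SLP-76, by 1.02 (0.16, adjusted p = 0.0370 from limma, 0.0238 to 0.122 over 23 alternatives). In the average CD247 passed no longer without PW_Res replicate 3 (-0.92), CD3G without that library (-0.98) or W_Con replicate 1 (-0.97), and LCP2 without PW_Res replicate 3 (-0.90), PW_Con replicate 2 (-0.95), W_Con replicate 1 or W_Res replicate 1 (both -0.98). Over all alternatives CD247 lost this call under 1 of 23, CD3G under 3 of 22 and LCP2 under 5 of 23. SIT1 and PTPRCAP, which encode membrane proteins of lymphocytes, rose at weaning in control litters, by 1.47 and 1.05, PTPRCAP no longer without W_Con replicate 3 (0.96) or PW_Con replicate 3 (0.97). The 3 genes of the list with the highest levels were PTPRCAP, CSK and CD247, and CSK, a kinase that holds LCK inactive, gave -0.11 in the average.

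Of 25 tested cytotoxic and natural killer cell genes 23 were lower in the average and 5 fell. GNLY, the granule protein granulysin, had group means of 93.7 FPKM in W_Con, 77.9 in PW_Con, 12.9 in W_Res and 22.02 in PW_Res. It fell by 2.75 at 21 days, by 2.01 at 28 days and by 2.38 in the average (standard error 0.36, adjusted p = 0.0365 from limma, 0.0238 to 0.175 over 23 alternatives), and passed the standard in all 3 without any 1 library. The cytokine IFNG fell by 1.14, the receptor CD244 by 1.09, its adaptor gene SH2D1B by 1.06 and the chemokine CCL5 by 1.04 in the average. CD244 passed no longer without W_Con replicate 1 (-0.95) or PW_Res replicate 3 (just above -1), CCL5 without PW_Con replicate 2 (-0.98) or PW_Res replicate 3 (-0.78), and SH2D1B without W_Con replicate 1 (-0.90), PW_Con replicate 1 or PW_Res replicate 2 (both -0.97). In the average, 3 of 22 alternatives ended the call of CD244, 3 of 23 that of CCL5 and 5 of 22 that of SH2D1B. IFNG lost its call under 1 of 22 (-0.96). At 21 days XCL1 (-1.31), IL2RB (-1.03) and TNFSF10 (-1.95) also fell, IL2RB no longer without W_Con replicate 1 (-0.90), W_Res replicate 1 (-0.98) or W_Res replicate 3 (-0.96). At 28 days KLRK1 (-1.26) and CTSC (-1.07), a protease that activates granzymes, fell, CTSC no longer without PW_Con replicate 1 (-0.91) or 2 (-0.99). Over all alternatives IL2RB lost its call at 21 days under 4 of 18, and CTSC at 28 days under 3 of 17. TNFSF10 rose by 1.34 at weaning in resveratrol litters, but no longer passed the standard under 1 of 16 alternatives (0.82). LAMP1 and STXBP2, which are expressed in most cell types, had the highest levels of the list beside GNLY and gave 0.14 and -0.10 in the average.

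Of 14 tested homing genes 12 were lower in the average. CD96 fell at 21 days (-1.06) and CCR7 at 28 days (-1.04), while CCR7 (1.49) and CCR9 (1.48), the receptor for the gut chemokine CCL25, rose at weaning in control litters. CD96 no longer passed without W_Con replicate 1 (-0.72) or W_Res replicate 1 (-0.91), CCR7 at 28 days without PW_Con replicate 2 (-0.75) or PW_Res replicate 1 (-0.92), and CCR9 without any single library of its comparison but PW_Con replicate 2 (1.11 to 1.53). Over all alternatives CD96 lost its call under 4 of 17, CCR7 at 28 days under 4 of 16 and CCR9 under 8 of 14. ITGB7 gave -0.71 and CCL25 0.33 in the average.

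Of 12 tested T cell transcription factors, 9 were lower in the average and none passed the standard. ZBTB7B gave 0.02, ETS1 -0.54 and ID2 0.03, and the signs of ZBTB7B and ID2 changed with single libraries. Of 11 tested genes for cytokines and receptors that sustain lymphocytes 8 were lower, with none past the standard in any comparison, and IL2RG, the shared receptor chain, gave -0.53, IL18 -0.19 and STAT5A 0.03. Of 7 genes of MHC molecules and their partners all 7 were lower in the average, none past the standard, with B2M at -0.55, SLA-DRA at -0.38 and SLA-1 at -0.12. SLA-DQB1 fell at 28 days (-1.14), no longer without PW_Con replicate 1 (-1.14) or 2 (-0.91) or PW_Res replicate 2 (-1.18) or 3 (-0.90). Over all alternatives it lost this call under 6 of 17. SLA genes are close copies of each other, and reads could be split between them.

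**Figure D4:**
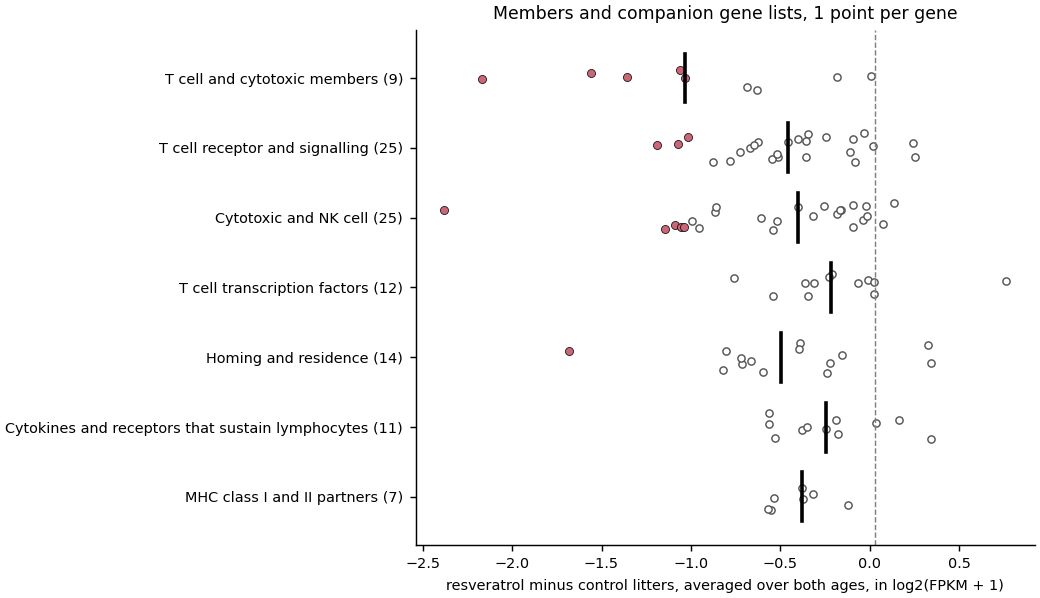
Difference between resveratrol and control litters averaged over both ages, in log2(FPKM + 1) (horizontal axis), for the 9 members and the 6 companion lists (vertical axis, number of tested genes in brackets), 1 point per gene. Filled points passed the standard, black bars are list medians and the dashed line is the median over all names, 0.03. The filled points, 5 members and 9 companion genes, all lie below -1.

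The 18 names with an adjusted p under 0.05 in the average comprised 12 that were lower and 6 that were higher in resveratrol litters. The lower ones included, beside GZMA, GNLY and LCP2, the gene TRDC, which encodes the constant part of the T cell receptor delta chain and was singled out after its values were seen. TRDC had means of 15.1 FPKM in W_Con, 9.77 in PW_Con, 2.65 in W_Res and 3.42 in PW_Res, a fall of 1.70 (standard error 0.27, adjusted p = 0.0417 from limma).

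Within the list, 7 members ran with the mean of all 9 over the 12 libraries, from r = 0.758 for CD8A to 0.921 for CD3E (Pearson, on log2 values), whereas CD4 (0.106) and PRF1 (0.053) did not. Each member is itself part of that mean. The 10 other names most like the mean were RASGEF1A (r = 0.951), STK17A, TRGV11, ITGAE, CD247, ENSSSCG00000029370, GPR174, LCP2, APOBEC3H and ITGB7 (r = 0.897). TRGV11 is a variable segment of the T cell receptor gamma chain, and ITGAE and ITGB7 together form the integrin by which intraepithelial lymphocytes bind epithelial cells. TRGV11 had group means of 12.4 FPKM in W_Con, 9.21 in PW_Con, 4.13 in W_Res and 4.47 in PW_Res, and ITGAE of 4.45, 4.82, 2.27 and 2.32 FPKM. With group means removed, r of the 10 names was 0.759 to 0.879. Points of these correlations share their library, its scaling and its tissue make-up.

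Markers of other white blood cells were set beside the members. B and plasma cell markers summed to 178 to 205 FPKM in W_Con and 221 to 287 FPKM in W_Res, with 8 of 11 higher at 21 days and none past the standard. At 28 days they summed to 232 to 375 FPKM in PW_Con and 207 to 256 FPKM in PW_Res, with 11 of 11 lower and CD22 past the standard (-1.12), though not without PW_Con replicate 2 (-0.69) or with quantile normalization (-0.99). Averaged over both ages the list medians were -0.36 for B and plasma cell, -0.63 for pan-leukocyte and -0.27 for macrophage and dendritic cell markers (7 tested), with none past the standard. None of the B and plasma cell or pan-leukocyte markers found was at 0 in a library, whereas CD14, MPEG1 and XCR1 of the macrophage and dendritic cell list were at 0 in at least 1. Follicle and germinal centre markers, the genes of the organised lymphoid tissue in which B cells mature, were found for 6 of 8 and tested for 5, CXCR5 being at 0 in at least 1 library. They summed to 39.0 to 55.8 FPKM in W_Con, 68.1 to 132 FPKM in W_Res, 77.8 to 188 FPKM in PW_Con and 30.05 to 54.3 FPKM in PW_Res. At 28 days 5 of 5 were lower in PW_Res, with a median of -0.65. CXCL13, the chemokine that draws B cells into follicles, was at 28.5, 24.6 and 6.14 FPKM in PW_Con and 1.25, 0.071 and 0.385 FPKM in PW_Res, and its log2 difference was -3.55 ± 0.65 (SE). CCL19, a chemokine of the T cell zone, passed the standard as well (-1.50), but not without PW_Con replicate 2 (-0.77), PW_Con replicate 3 (-1.37), PW_Res replicate 1 (-1.17) or PW_Res replicate 3 (-1.57), nor after median-of-ratios rescaling (-1.40) or with the ileum (-1.51) or smooth muscle score (-1.44) as a covariate. At 21 days 3 of 5 were lower, and CCL21, a chemokine of lymphatic vessels and the T cell zone, was higher past the standard (1.38). CCL21 did not pass it without W_Res replicate 2 (0.96) or with the smooth muscle score as a covariate (0.71). In the average over ages 4 of 5 were lower, with a median of -0.38 and CXCL13 past the standard (-1.88). The part of these lists in the members' differences, and whether the members differed more than the lists, was not tested.

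**Figure D5:**
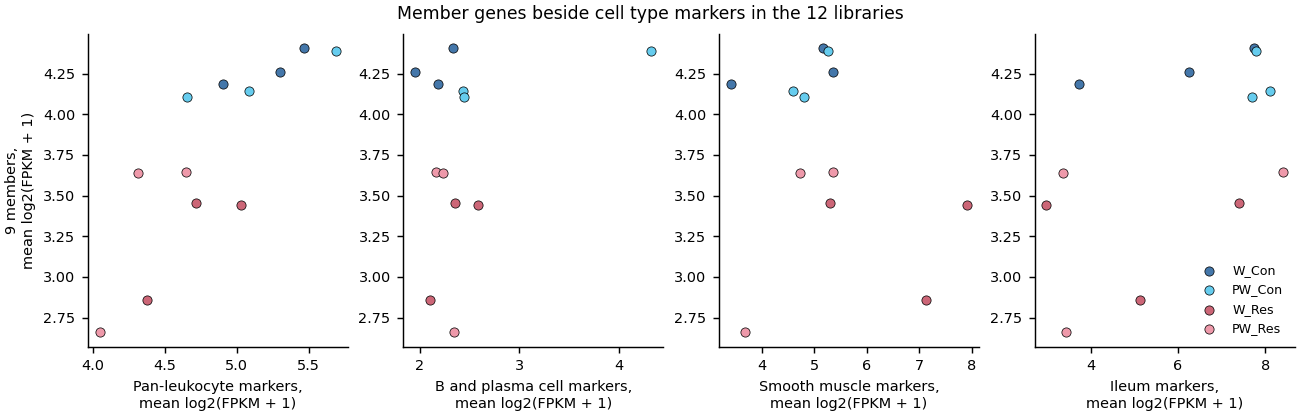
Mean log2(FPKM + 1) of the 9 members (vertical axis) against that of the markers of 4 cell or tissue types (horizontal axes) in the 12 libraries, 1 point per library, coloured by group. The 6 control libraries lie above the 6 resveratrol libraries on the vertical axis, in each of the 4 panels.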

How the data were processed

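Poly(A) RNA of 12 jejunum samples was sequenced with paired-end reads. The authors deposited 1 table of FPKM, estimated per locus with StringTie and Ballgown. The paper names TopHat as aligner, and the submitters' processing notes list HISAT2 2.0, Bowtie 0.12.2, StringTie 1.3.0 and the builds Sscrofa10.2 and mm8, with no role given. No scaling beyond FPKM is stated, and strand is not given in the sources used here. Columns were matched to samples by title, and 0 value columns were left unmatched.

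Rows of 1 gene name were summed, and 16 of the list and marker genes were found under an Ensembl identifier with a table of pig gene names. Names with a mean of at least 0.5 FPKM (12886 of 17049) were fitted with limma 3.58.1 under R 4.3.3 (lmFit, contrasts.fit, eBayes with trend) on log2(FPKM + 1), 1 fit of 4 group means over 12 libraries, for 7 comparisons, with Benjamini-Hochberg adjustment over all names. How the authors' FPKM treated reads that match several loci is not given in the sources used here. The members and lists were chosen with earlier results of these data known. Named are all members, the 3 most abundant genes of each companion list, genes of those lists past the standard, and the 10 names most like the members' mean. Some companion and marker genes are not reported here. Marker scores are means of log2 values. Alternatives covered 2 rescalings, a minimum of 5 FPKM or none, a pseudocount of 0.1, eBayes without trend, a replicate block, single rows, only the libraries compared, and leaving out each library. Marker score covariates and the joint omission of 2 W_Res libraries were added after seeing the data.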

Additional observations from a re-analysis of the deposited data

Results flagged for a closer look

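The interaction, the difference of the weaning difference between diets, passed the standard for 5 of the 94 tested companion genes. This share lay below the 7.76% of all names that passed it, and all adjusted p of the 5 from limma were above 0.05. The interaction was 2.00 on the log2 scale for TNFSF10, the death ligand TRAIL, with group means of 27.2 FPKM in W_Con, 17.4 in PW_Con, 6.59 in W_Res and 17.7 in PW_Res. It was 1.00 for PTPN22, a phosphatase that dampens T cell receptor signals. It was -1.06 for CTSC, -1.05 for TYROBP, an adaptor of natural killer and myeloid receptors, and -1.06 for UNC13D, which acts in granule release. With median-of-ratios rescaling CTSC (-0.87), TYROBP (-0.86) and UNC13D (-0.91) no longer passed the standard. Leaving out single libraries also ended the calls of CTSC (up to -0.82), TYROBP (up to -0.72) and UNC13D (up to -0.85). PTPN22 no longer passed when any 1 of 6 libraries was left out (0.86 to 0.99). No member met this criterion, and groups of 3 libraries were too small for the search for single outlying samples.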

How the results depend on the processing

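Over all named genes and comparisons, 2458 alternative values were computed, of which 2210 kept their direction and side of the standard, 151 no longer passed it, 17 newly passed it and 80 changed sign. Sign changes among members occurred only for values that had not passed the standard. With each library left out in turn, the number of members past the standard ran from 0 to 1 in both weaning comparisons and in the interaction, from 2 to 4 for resveratrol at 28 days and from 3 to 5 for the average over ages. With W_Res replicates 2 and 3 left out together it was 1 in the interaction, and a group of 1 library was then assumed to vary like the others. The causes of these changes were not tested.

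Leaving out single libraries took the log2 difference through 0 at weaning in control litters for CD8A (-0.081 to 0.21) and LCK (-0.21 to 0.25), and at weaning in resveratrol litters for CD3D (-0.52 to 0.70), CD3E (-0.36 to 0.52), CD4 (-0.59 to 0.083), CD2 (-0.19 to 0.65), LCK (-0.19 to 0.30), GZMA (-0.13 to 0.70), PRF1 (-0.47 to 0.068) and NKG7 (-0.56 to 0.23). For the average weaning difference it did so for CD3D (-0.57 to 0.038), CD4 (-0.17 to 0.17), CD2 (-0.34 to 0.10), LCK (-0.11 to 0.18) and GZMA (-0.40 to 0.015), and for the interaction for LCK (-0.27 to 0.25). For resveratrol it did so for CD4 at 21 days (-0.13 to 0.53) and in the average (-0.21 to 0.13), for CD8A at 28 days (-0.70 to 0.11), and in the average for ZBTB7B (-0.048 to 0.11), ID2 (-0.11 to 0.15), IL18 (-0.48 to 0.076) and STAT5A (-0.10 to 0.17).

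With W_Res replicates 2 and 3 left out the sign changed at weaning in resveratrol litters for CD4 (0.085), LCK (0.23) and PRF1 (0.041), in the average weaning difference for CD3D (0.084), CD4 (0.17), CD2 (0.018) and GZMA (0.14), in the interaction for LCK (0.18), at 21 days for CD4 (-0.13), and in the resveratrol average for CD4 (-0.21), ID2 (-0.045) and STAT5A (-0.24). Median-of-ratios rescaling changed it for LCK at weaning in resveratrol litters (0.18) and in the interaction (0.11) and for CD4 in the average weaning difference (0.055). Quantile normalization changed it for LCK (0.084) and PRF1 (0.035) at weaning in resveratrol litters, for LCK in the interaction (0.037) and for CD4 (-0.0052) and ZBTB7B (-0.022) in the resveratrol average. The most abundant row of GZMA gave -0.12 at weaning in resveratrol litters. The smooth muscle covariate gave -0.32 for CD4 at 21 days, and in the average -0.26 for CD4, -0.11 for ID2, 0.35 for IL18 and -0.040 for STAT5A. The ileum covariate gave -0.19 for CD4, 0.0048 for STXBP2 and -0.027 for STAT5A.

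Replicate numbers did not pair the samples. Deviations of same-numbered libraries correlated between -0.257 and 0.303, and a library correlated best with its own number in 12 of 36 cases. With a replicate block the members past the standard numbered 4 at 21 days, 2 at 28 days and 5 in the average, as without it, and the names past it at 21 days 640 in place of 615.

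Over all names, a pseudocount of 0.1 moved the count past the standard from 399 to 783 for weaning in control litters, 636 to 1237 in resveratrol litters, 183 to 591 in the average weaning difference, 615 to 1185 at 21 days, 200 to 456 at 28 days and 121 to 379 in the resveratrol average. A minimum of 5 FPKM, with fewer names tested, gave 219, 212, 118, 250, 112 and 76 in that order and moved the interaction from 1000 to 364. Without W_Res replicates 1, 2 and 3 in turn the count at 21 days was 1017, 407 and 948, and without the first and second that for weaning in resveratrol litters was 1101 and 385. It was 358 at 28 days without PW_Res replicate 1 and 633 in the interaction without W_Con replicate 3. Scaling also moved the split of calls. Higher names were 69.9% of calls at 21 days, 59.3% after median-of-ratios rescaling and 54.4% after quantile normalization. In that order they were 42.0%, 58.1% and 52.0% at 28 days, 20.0%, 42.3% and 44.6% for weaning in resveratrol litters (410 calls after quantile normalization), 23.3%, 42.9% and 45.7% in the interaction and 51.9%, 69.4% and 62.5% in the average weaning difference. With no counts in the table, the depth that limits low values such as PRF1 is unknown.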
